A study of Homo sapiens with 8 samples.

Results

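ISG15 and the genes that attach it to proteins or remove it were described across 4 groups of HCT-116, a line of human colorectal carcinoma cells. The genes were ISG15, USP18, UBA7, UBE2L6, HERC5 and HERC6, 6 of the 32080 gene names on the array. They were selected because of their expression in these same samples, and all non-control probes carrying their names were taken, 7 in all. The study compared cells in which the cyclin-dependent kinase CDK2 was inhibited or deleted with cells that had become resistant to the inhibitor NU6102, which acts on CDK1 and CDK2. WT cells were the untreated parental line. WT+NU6102 cells were the same line exposed to 20 µM NU6102 for 24 h. CDK2 KO cells were HCT-116 cells with a CDK2 knockout, left untreated, and R50 cells were HCT-116 cells resistant to NU6102 and kept in 50 µM of it. Each group was represented by 2 arrays, and no source used here states how many clones the CDK2 KO or R50 cells descend from.

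ISG15 is a small protein related to ubiquitin that cells make in response to interferon. UBA7 activates it, UBE2L6 carries it and the ligase HERC5 transfers it to target proteins, many of them newly made, while USP18 cleaves it off again and also restrains signalling from the type I interferon receptor. HERC6 is the close relative of HERC5 that serves as the main ISG15 ligase in mice. Each of these genes is itself induced by interferon, through the transcription factor ISGF3, which contains STAT2 and IRF9.

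The array measured each transcript through 60-base probes, whose positions are given by the scanner files on hg19. The probes shown here stand for 4 of the genes, to make plain which stretch of each messenger RNA gave the values.
UBA7 probe, chr3:49845325-49845476, minus strand: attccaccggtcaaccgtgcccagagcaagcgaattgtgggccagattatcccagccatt
UBE2L6 probe, chr11:57319897-57319956, minus strand: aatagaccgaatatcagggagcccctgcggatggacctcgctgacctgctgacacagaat
HERC5 probe, chr4:89426889-89426948, plus strand: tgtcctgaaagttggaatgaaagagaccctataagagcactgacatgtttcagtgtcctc
HERC6 probe, chr4:89317234-89317293, plus strand: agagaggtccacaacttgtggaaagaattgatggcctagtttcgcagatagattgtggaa
The UBA7 probe spans 152 bases of the genome, 92 more than its own length, so it crosses an exon junction. HERC6 had a further probe at chr4:89363667-89363726, and the USP18 probe lay at chr22:18659618-18659677, both on the plus strand. HERC5 was spotted 10 times on each array and every other probe once.

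Promoters were compared because the 6 genes shared a pattern over the groups. RefSeq windows of GRCh38.p14 were given for ISG15, UBE2L6, HERC5 and HERC6. Capitals mark the letters GAAANNGAAA, or TTTCNNTTTC where they read on the other strand, which resemble the interferon-stimulated response element that ISGF3 binds. The 250 bases before the start of each gene are shown for the genes with a match.
ISG15 promoter, chr1:1013247-1013496, plus strand: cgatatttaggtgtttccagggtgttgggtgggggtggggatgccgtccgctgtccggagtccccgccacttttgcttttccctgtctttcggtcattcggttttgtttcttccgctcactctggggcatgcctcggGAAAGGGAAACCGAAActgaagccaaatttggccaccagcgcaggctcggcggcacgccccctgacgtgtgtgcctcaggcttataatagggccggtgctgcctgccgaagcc
HERC5 promoter, chr4:88456869-88457118, plus strand: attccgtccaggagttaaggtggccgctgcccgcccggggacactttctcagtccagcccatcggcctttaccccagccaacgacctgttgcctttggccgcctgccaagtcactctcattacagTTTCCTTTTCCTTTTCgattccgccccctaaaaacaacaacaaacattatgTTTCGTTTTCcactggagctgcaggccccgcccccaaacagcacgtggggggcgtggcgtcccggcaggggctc
In the ISG15 window, 2 overlapping matches ran from 113 to 98 bases before the start. The HERC5 window held 3 matches between 125 and 65 bases before the start, of which 2 overlapped. No match lay in either UBE2L6 window or in the HERC6 window. Of 35116 windows in the reference, 3.02% held a match in these 250 bases. A match describes letters only, and no binding was measured.

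The values below are log2 intensities relative to the 75th percentile of each array, which was set to zero. CDK2 KO and R50 shared 1 slide, and WT and WT+NU6102 shared another. Slide and group can therefore be separated in WT+NU6102 against WT and in R50 against CDK2 KO, and cannot be told apart in the other 4 comparisons. Replicate arrays correlated with r between 0.994 and 0.996 across probes, which are not independent replicates. The CDK2 probe was 0.78 lower on the log2 scale in CDK2 KO than in WT. All 8 arrays had the 5 epithelial markers tested well above background. The sum of these 5, as a linear multiple of the 75th percentile, was 465 to 477 in WT, 548 to 569 in WT+NU6102, 588 to 611 in CDK2 KO and 730 to 733 in R50. Among 7 markers of other cell types, PECAM1 and PDGFRB were not well above background on both arrays of any group, while the PTPRC, CD14 and COL1A1 probes were above it on all 8. The summed level of these 7 markers on the same scale was 0.532 to 0.570 in WT, 0.505 to 0.508 in WT+NU6102, 0.802 to 0.874 in CDK2 KO and 0.691 to 0.727 in R50. The part of these differences in the results was not tested. In a culture measured in bulk, fewer cells expressing a gene and less RNA per cell cannot be told apart.

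All 6 genes were highest in WT cells and second highest in R50 cells. By group mean the lowest was CDK2 KO for ISG15, USP18 and HERC5, and WT+NU6102 for UBE2L6 and HERC6. These 2 groups were nearly level for HERC5, with CDK2 KO at -0.06 ± 0.06 against WT+NU6102. On the further HERC6 probe CDK2 KO was at 0.28 ± 0.21 against WT+NU6102. For UBA7 these 2 groups were both below background and have no order. Both WT arrays lay above the other 6 arrays for 6 of 6 genes, compared with 7.11% of the 19509 gene names tested. The measured values of no 2 groups overlapped for 6 of 6 genes, against 28% of all tested, although for UBA7 the values of 2 groups were below background. Since the genes were chosen by these values, the shares are a description and carry no test.

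**Figure D1:**
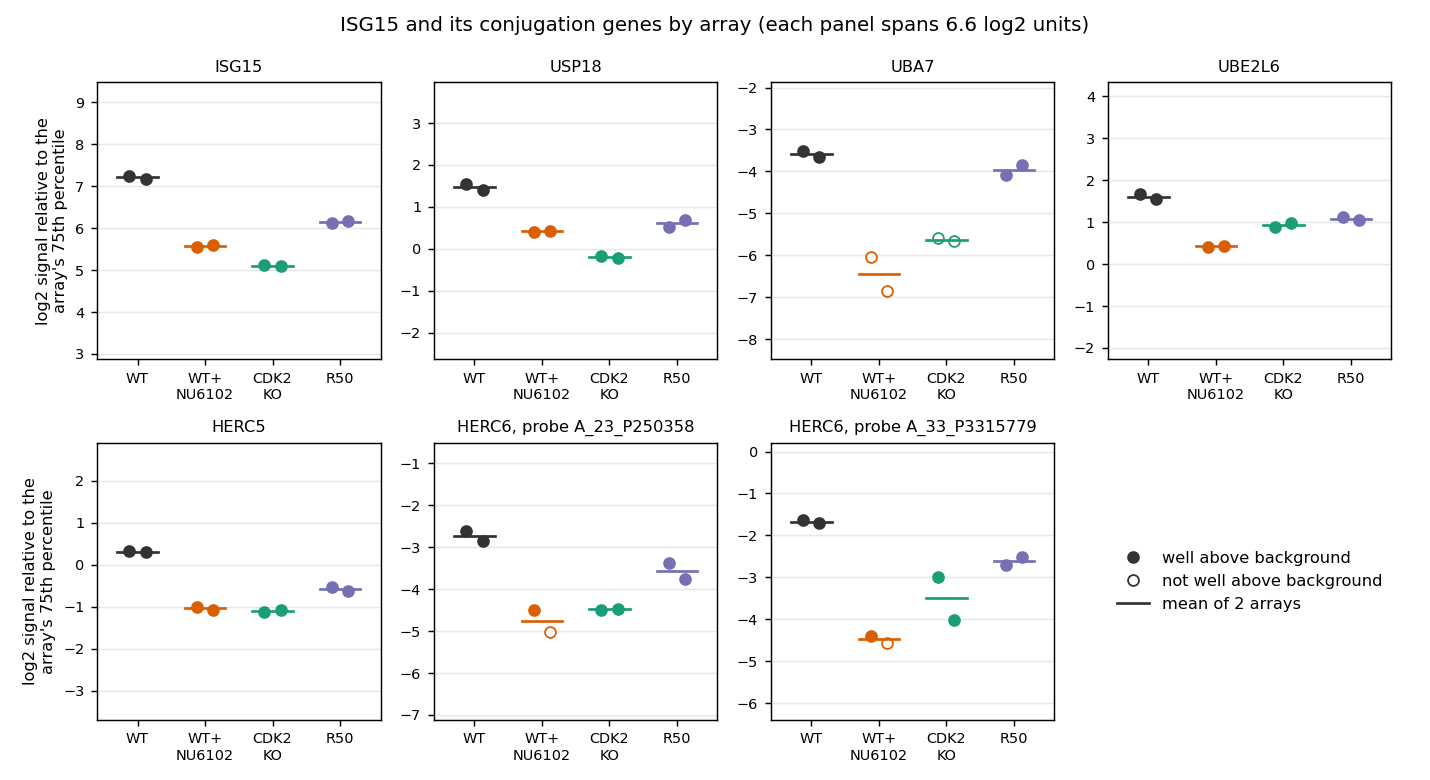
Values of the 7 probes on each of the 8 arrays, in log2 relative to the 75th percentile of the array. Every panel spans the same range, so differences can be compared between panels but levels cannot. Filled points were well above background, open points were not, and bars are means of 2 arrays. WT is the highest group in every panel, and UBA7 has open points in WT+NU6102 and CDK2 KO.

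ISG15 itself, the protein that is conjugated, was measured at 7.25 and 7.17 on the WT arrays. It was at 5.56 and 5.60 in WT+NU6102, 5.11 and 5.11 in CDK2 KO, and 6.13 and 6.16 in R50. The 4 groups were thus well separated, with R50 between WT and the other two. Compared with WT, ISG15 was 3.10-fold lower in WT+NU6102 (log2 -1.63 ± 0.05, SE of the fitted difference), 4.30-fold lower in CDK2 KO (-2.11 ± 0.05) and 2.10-fold lower in R50 (-1.07 ± 0.05). R50 was 2.05-fold higher than CDK2 KO on the same slide. The largest SD between the 2 arrays of a group was 0.06, in WT. The scanner software marked 0 spots as saturated on any array.

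UBA7, the activating enzyme, was below the detection flag in the WT+NU6102 and CDK2 KO groups. Its values were -3.51 and -3.65 in WT and -4.08 and -3.85 in R50. In WT+NU6102 they were -6.05 and -6.84, and in CDK2 KO -5.60 and -5.66, and none of these 4 arrays was well above background. Measured values alone would overstate the precision here, so signals below the lowest one that passed the flag on their array were raised to it. That signal does not cap the level of an undetected probe, so the folds that follow are not strict limits. UBA7 was then 2.64-fold lower in WT+NU6102 than in WT and 2.94-fold lower in CDK2 KO. R50 exceeded WT+NU6102 2.02-fold and CDK2 KO 2.25-fold. In R50 against WT the difference was -0.39 ± 0.25, the smallest of the 6 genes in that comparison. CDK2 KO and WT+NU6102 were both below background, which gives no fold between them. With normexp background correction the differences from WT were -0.79 in WT+NU6102 and -0.58 in CDK2 KO, and neither was called. R50 then exceeded WT+NU6102 by 0.68 and CDK2 KO by 0.47 on the log2 scale, also without a call.

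UBE2L6, the conjugating enzyme, had the narrowest range of group means among the 6 genes, 1.19. Its values were 1.66 and 1.56 in WT, 0.41 and 0.44 in WT+NU6102, 0.90 and 0.98 in CDK2 KO, and 1.12 and 1.06 in R50. WT+NU6102 was the low group, and CDK2 KO and R50 lay close together without overlap. UBE2L6 was 2.27-fold lower in WT+NU6102 (-1.19 ± 0.06), 1.60-fold lower in CDK2 KO (-0.68 ± 0.06) and 1.44-fold lower in R50 (-0.53 ± 0.06). The difference between R50 and CDK2 KO was only 0.15 ± 0.06.

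HERC5, the ligase, read 0.33 and 0.30 in WT. It read -1.0 and -1.08 in WT+NU6102, -1.12 and -1.08 in CDK2 KO, and -0.53 and -0.63 in R50. WT+NU6102 and CDK2 KO were nearly level, 0.06 ± 0.06 apart, and R50 was between them and WT. HERC5 was 2.55-fold lower in WT+NU6102 (-1.35 ± 0.06), 2.67-fold lower in CDK2 KO (-1.42 ± 0.06) and 1.85-fold lower in R50 (-0.89 ± 0.06). The SD among the 10 spots of the probe on an array was 0.03 to 0.08 on the log2 scale, which measures technical spread alone.

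HERC6, the relative of HERC5, was measured by a pair of probes in different parts of the transcript. The probe with the higher mean signal, at chr4:89317234-89317293, read -1.64 and -1.71 in WT, -4.40 and -4.56 in WT+NU6102, -2.99 and -4.01 in CDK2 KO, and -2.70 and -2.51 in R50. The CDK2 KO arrays differed by more than any other pair for this gene, with an SD of 0.72. On this probe HERC6 was 6.97-fold lower in WT+NU6102 (-2.80 ± 0.32), 3.54-fold lower in CDK2 KO (-1.82 ± 0.32) and 1.90-fold lower in R50 (-0.93 ± 0.32). On the other probe the differences from WT were -2.02 ± 0.21, -1.74 ± 0.21 and -0.84 ± 0.21 in the same order, with CDK2 KO arrays at -4.49 and -4.46. Both probes gave the same order of the group means, but on the other probe CDK2 KO and WT+NU6102 were only 0.28 ± 0.21 apart. In WT+NU6102 each probe was well above background on 1 of 2 arrays, so the size of its difference from WT is uncertain. With normexp background correction the brighter probe differed from WT by -1.34 in WT+NU6102 and -1.04 in CDK2 KO.

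USP18, the protease that removes ISG15, had values of 1.56 and 1.40 in WT, 0.41 and 0.42 in WT+NU6102, -0.18 and -0.21 in CDK2 KO, and 0.53 and 0.68 in R50. CDK2 KO was the lowest group, and R50 and WT+NU6102 lay next to each other, 0.19 ± 0.08 apart. USP18 was 2.09-fold lower in WT+NU6102 (-1.06 ± 0.08), 3.19-fold lower in CDK2 KO (-1.68 ± 0.08) and 1.83-fold lower in R50 (-0.88 ± 0.08). USP41 is a near copy of USP18 with its own probe, which differed from WT by -1.14, -1.64 and -1.21 in the same order. How far the probes of the 2 genes share transcripts was not tested.

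**Figure D2:**
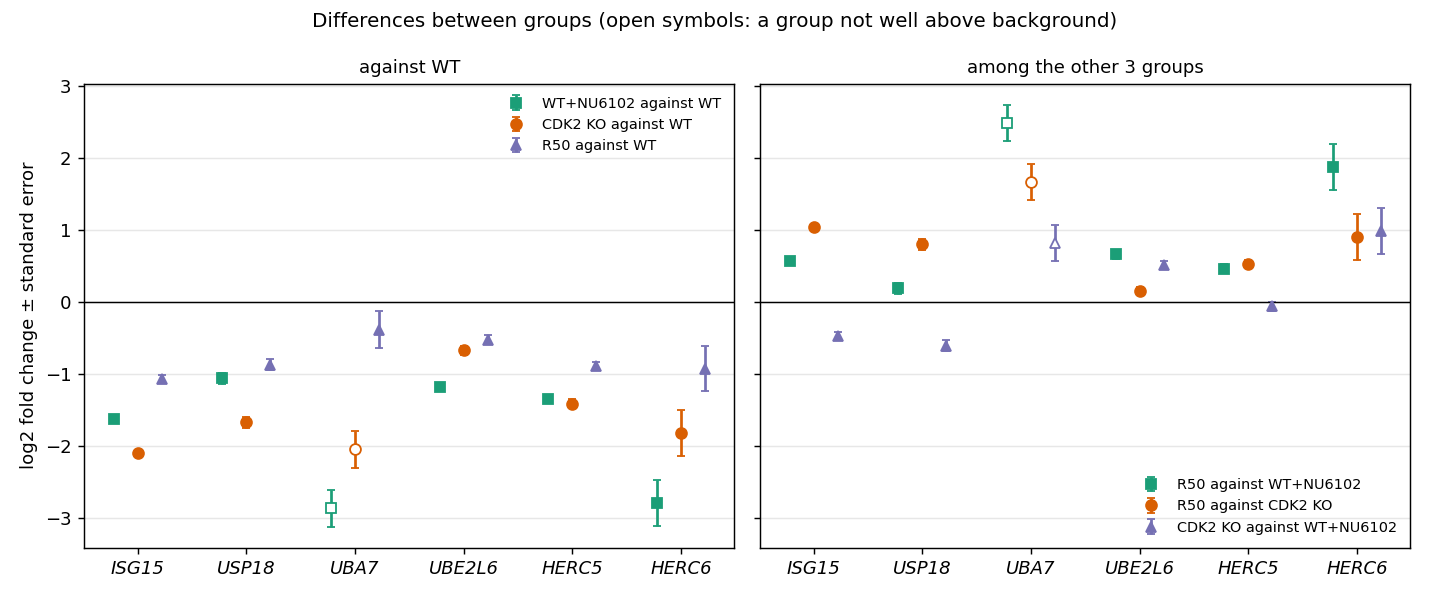
Log2 fold changes of the 6 genes with standard errors, from a fit to all 8 arrays, against WT on the left and among the other 3 groups on the right. Every value against WT lies below 0, and those of R50 are the smallest for every gene. Open symbols mark UBA7 comparisons in which a group was not well above background.

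A gene was called where the limma fit across all 28677 tested probes gave a Benjamini-Hochberg adjusted p under 0.05 and the log2 fold change was at least 1 in size. In WT+NU6102 against WT, 6 of 6 genes were called lower, and 5.53% of all tested gene names were. In CDK2 KO against WT it was 5 of 6, beside 2.31% of all, and the exception was UBE2L6, which did not reach the minimum fold change. In R50 against WT it was ISG15 alone, 1 of 6, beside 0.943%. USP18 and HERC5, at -0.88 and -0.89, were short of the minimum in that comparison, and HERC6, at -0.93, met neither threshold. ISG15 was itself close to it, and with normexp background correction its difference was -0.98 and no longer called. R50 was called higher than WT+NU6102 for UBA7 and HERC6, where 7.99% of all gene names were, and higher than CDK2 KO for ISG15 and UBA7, where 2.92% were. Between CDK2 KO and WT+NU6102 0 of the 6 genes were called by limma and 0 by the methods' t-test, although 5 had an unadjusted p under 0.05 in limma, while 3.5% of all gene names were called lower and 8.03% higher in CDK2 KO. The moderated F-test among the 4 groups, at an adjusted p under 0.001, passed 5 of 6 genes, all but HERC6, and 23.4% of all. It passed 1 gene without WT replicate 1, 2 without WT replicate 2, 3 without any other array and 2 over all usable probes. Nothing is read from these counts, since the same contrasts led to the choice of genes. The median differences of the 6 genes from WT were -1.49 in WT+NU6102, -1.75 in CDK2 KO and -0.88 in R50, beside medians of 0.04, 0.02 and -0.03 over all tested gene names.

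Other proteins linked to ISG15 gave no call. The list held the ligases TRIM25 and ARIH1, the conjugating enzymes UBE2E1 and UBE2E2, the proteases USP16 and USP21, and ITGAL, a subunit of the integrin that acts as a receptor for extracellular ISG15. ITGAL was not well above background in any group. Of 36 results for the other 6 genes in 6 comparisons, 0 were called by limma and 0 by the methods' t-test, and 15 had an unadjusted p under 0.05 in limma. Their differences from WT lay between -0.51 and 0.31. The largest in size was that of USP21 in WT+NU6102, at -0.51, and TRIM25 was at -0.37 there. In CDK2 KO and R50, USP21 was at -0.04 and -0.14 and TRIM25 at -0.01 and -0.05. Of all gene names, 5.53%, 2.31% and 0.943% were called lower than WT in WT+NU6102, CDK2 KO and R50. With such shares, 6 genes are too few for 0 calls to set them apart from genes at large.

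Close relatives that serve ubiquitin or other modifiers formed a further list of UBA1, UBA2, UBA3, UBA6, UBE2L3 and HERC1 to HERC4, of which HERC3 was not tested. Of these 8, 0 were called lower against WT in any group by limma, beside the shares of all gene names just given. UBE2L3, the ubiquitin-conjugating relative of UBE2L6, was called higher in CDK2 KO by 1.30, where 2.53% of all gene names were. Its brighter probe gave that value, and its other probe gave -0.32, so the direction depends on the probe. A list of 12 genes for ubiquitin and ubiquitin-like proteins, among them UBB, RPS27A and NEDD8, gave 1 call against WT. This was UFM1, called lower in CDK2 KO, at -1.45 on its brighter probe and -0.05 on the other. In R50 against CDK2 KO, UBE2L3 (-1.11) and SUMO3 (-1.26) were called lower, where 2.36% of all gene names were. The other UBE2L3 probe was at 0.09 in that comparison, so this call too depends on the probe.

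The factors that drive interferon responses included genes that were also lower. From a list of 15 tested genes for receptors, their kinases, ISGF3 and regulators, STAT2 (-1.13), IRF9 (-3.81) and IRF7 (-2.41) fell in WT+NU6102. In CDK2 KO, IRF9 (-2.57) and IRF7 (-3.28) fell, and STAT2 was at -0.49. In R50 against WT 0 of the 15 were called by limma and 0 by the methods' t-test, while 8 had an unadjusted p under 0.05 in limma. Of all gene names, 0.943% were called lower in that comparison. There STAT2 was at 0.00, IRF9 at -0.23 and IRF7 at -0.81. ISG15 was called lower in R50 cells while STAT2 and IRF9 were not, and whether these differences differ was not tested. The receptor genes IFNAR1, IFNAR2, IL28RA and IL10RB lay between -0.09 and 0.51 in all 3 groups.

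Interferon genes were mostly undetected. Of 16 on the array, IFNA4, IL29, IL28A and IL28B were tested, and IFNB1 and IFNG were not well above background on any array. IFNA4 differed from WT by 0.41 in WT+NU6102, -0.40 in CDK2 KO and 0.02 in R50, and was not called. The type III interferon genes IL29, IL28A and IL28B were called lower in WT+NU6102 and in CDK2 KO, beside 5.53% and 2.31% of all gene names. With normexp background correction 1 gene of the list was called in each comparison, and the methods' t-test made 2 and 1. IL28A, well above background on all 8 arrays, differed from WT by -1.38 and -1.71 there and by -0.97 in R50. IL29 was below the detection flag in WT+NU6102 and CDK2 KO, so the size of its fall is uncertain. Its measured differences from WT were -2.04 ± 0.48 and -2.97 ± 0.48. In R50, IL29 was detected on 1 of 2 arrays and differed by -1.84 ± 0.48. IL28B was detected in WT alone. With low signals raised as for UBA7, IL28B was 1.93-fold lower in WT+NU6102, 2.15-fold in CDK2 KO and 1.99-fold in R50. These folds are not strict limits. In R50, IL29 and IL28B were called lower, where 0.943% of all gene names were. Of the 2 calls in R50, those of IL29 and IL28B, 1 was lost when any array of WT, WT+NU6102 or CDK2 KO was left out, and both were lost with normexp background correction. IL28A and IL28B are nearly identical in sequence, and whether their probes also bind each other's transcripts was not tested.

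The other genes induced by interferon resembled the ISG15 system in direction. Of 42 tested, 34 were called lower in WT+NU6102, beside 5.53% of all gene names, and 41 were below WT in value, with a median of -1.84. In CDK2 KO 34 were called lower, beside 2.31% of all, and 42 were below WT, with a median of -1.75. In R50 11 were called lower, beside 0.943% of all, and 40 were below WT, with a median of -0.78. The methods' t-test called 0 of 42 in R50. Among those well above background on all 8 arrays, PARP10 reached -4.15 in WT+NU6102. BST2, IFI6 and IFITM1, which encode interferon-induced membrane proteins, were at -6.21, -4.87 and -6.37 in CDK2 KO, against -2.11 for ISG15. IFITM2 and IFITM3 differed less than ISG15 there, at -1.21 and -1.30. Some genes of the list departed from the pattern, such as MX2, at -0.04, -0.18 and -0.15 in the 3 groups. TRIM22 was at 0.93 ± 0.35 in R50, which was not called, and was called lower in WT+NU6102, at -1.47. Its probe passed the detection flag on 4 of 8 arrays, so the size of its differences is uncertain. R50 was called higher than WT+NU6102 for 26 of the 42, beside 7.99% of all gene names, and higher than CDK2 KO for 23, beside 2.92%. With normexp background correction, or with probes well above background on all 8 arrays alone, the 26 became 17. The list was written with earlier results of these data known and is no independent evidence. Of 35 of the 44 listed genes with a promoter window, 77.1% held the letters searched anywhere in the 300-base window, against 2 of the 4 genes of the ISG15 system with a window and 4.38% of all genes with a window.

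**Figure D3:**
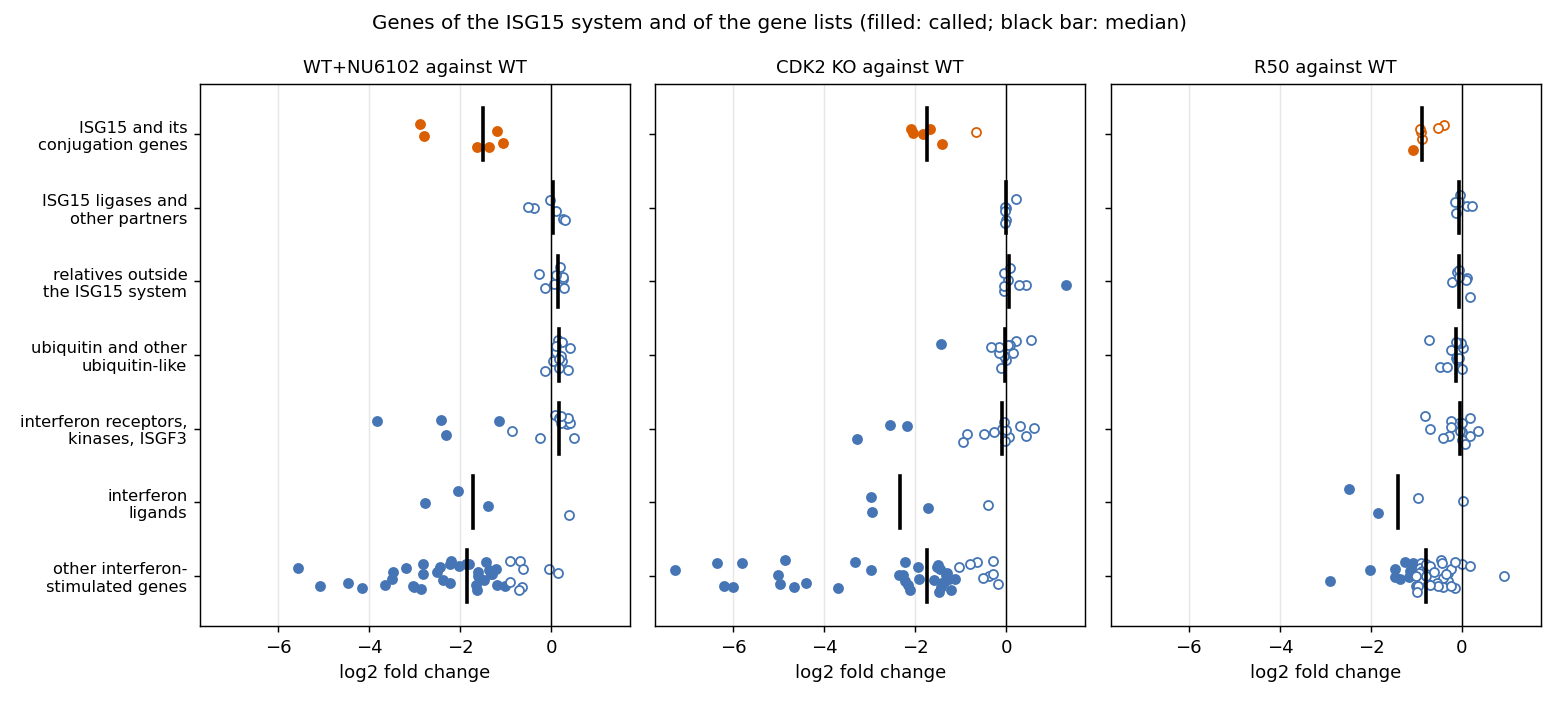
Log2 fold changes against WT of the 6 genes, in orange, and of the tested genes of 6 lists, in blue. Filled points were called, open points were not, and the black bar is the median. The median is -1.49, -1.75 and -0.88 for the ISG15 system and near 0 for its other partners and for ubiquitin.

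Genes whose profile was most like that of ISG15 were found by the root mean square difference over the 8 arrays, each probe taken relative to its WT mean, among 19508 other tested gene names. The nearest outside the 6 genes were GGT5 at 0.190, DTX3L at 0.202, PSMB9 at 0.224, OASL at 0.232 and FLT3LG at 0.240 log2 units. GGT5 is a gamma-glutamyltransferase, DTX3L a ubiquitin ligase that pairs with PARP9, PSMB9 a catalytic subunit of the immunoproteasome, OASL a ubiquitin-like relative of the oligoadenylate synthetases and FLT3LG a cytokine. In CDK2 KO these genes differed from WT by between -2.16 and -1.91, compared with -2.11 for ISG15. USP18 ranked 13 and HERC5 16, at 0.372 and 0.385. UBE2L6 ranked 192, and differed less from WT in CDK2 KO than ISG15 did. UBA7 and HERC6 are given no rank, since they were well above background on only 4 and 7 of the 8 arrays. FLT3LG, named above, was also well above background on only 7 of 8, and its distance carries the same limit.

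**Figure D4:**
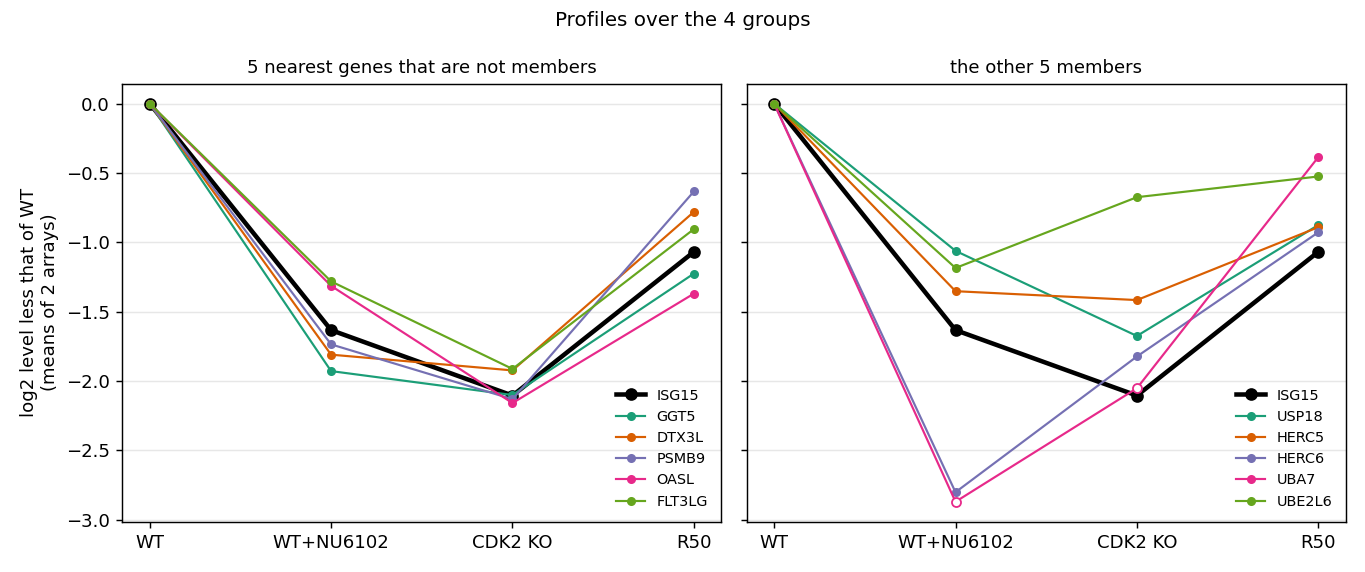
Mean log2 level of each group less that of WT, for ISG15 in black and the 5 nearest other genes on the left, and for the other 5 genes of the ISG15 system on the right. The nearest genes stay close to ISG15 in all 4 groups, whereas UBE2L6 is at -0.68 in CDK2 KO. Open points mark groups in which no array was well above background, which holds for UBA7 in WT+NU6102 and CDK2 KO. Their heights give no order, and HERC6 was well above background on 1 of 2 arrays in WT+NU6102.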

How the data were processed

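RNA was labelled with Cy3 and hybridized to Agilent arrays in 1 colour. The authors deposited, for each spot, a background-subtracted intensity from Agilent Feature Extraction 11.5.1.1 and flags for spots well above background, saturated or outlying. Their processed log2 values of 28719 probes, also deposited by the authors, have column medians between -0.02 and 0.02. For 89.6% to 89.7% of probes per array they lie within 0.05 of the log2 signal less 1 constant per array, centred by probe. The rest differ by more, and their filter is not given in the sources used here. No processed column was left unmapped.

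In R 4.3.3, each array's log2 signals were expressed relative to its 75th percentile, and limma 3.58.1 was used for the fits. Outlier spots were left out and spots averaged. A probe was tested if some group had both arrays well above background, which held for 28677 of 50599, and the brightest probe stood for a gene. All 8 arrays were fitted together with empirical Bayes moderation, and tests are two-sided. The 2 arrays per group limit precision. Labels call them biological replicates. The fit was tested on simulated data. Alternatives were normexp background correction (offset 50), quantile normalization, other filters on dim probes, the authors' values, a trended prior variance, no minimum fold change, the methods' t-test and ANOVA, fits within a slide, the mean of probes, a replicate block and leaving out each array. Named genes were the 6 members, the 5 nearest to ISG15, called or defining genes of the lists, CDK2 and the markers. The 6 genes and all lists were chosen with earlier results of these data known. Promoters came from RefSeq (GRCh38.p14), with windows for 4 of the 6 genes. Plots were made in Python 3.11.15 (matplotlib 3.10.9, numpy 2.4.6). Some results are not reported here.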

Additional observations from a re-analysis of the deposited data

How the results depend on the processing

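All 648 differences of the 6 genes recomputed under the alternatives kept their sign, and 618 also kept their side of the call. With normexp background correction, called genes went from 1 to 0 in R50 against WT, from 2 to 0 in R50 against WT+NU6102 and from 2 to 1 in R50 against CDK2 KO. Keeping probes well above background on all 8 arrays removed UBA7 and HERC6, which left 3, 0 and 1 genes called in CDK2 KO against WT, R50 against WT+NU6102 and R50 against CDK2 KO. Without a minimum fold change 4 genes were called in R50 against WT and 5 in R50 against WT+NU6102. It was 4 in R50 against CDK2 KO and 5 in CDK2 KO against WT+NU6102. Many probes at large were called too, 6486, 14750, 9876 and 15262 of the 28677 tested in the same order. The methods' t-test called 0, 1 and 1 in the 3 comparisons of R50 in the order above, and 9 probes in all in R50 against WT in place of 742. The methods' ANOVA passed 2 genes, and the F-test over all usable probes passed 2, in place of 5. Leaving out arrays gave 5 to 6 genes in WT+NU6102 against WT, 4 to 5 in CDK2 KO against WT, 1 in R50 against WT, 2 in R50 against WT+NU6102, 2 to 3 in R50 against CDK2 KO, 0 to 1 in CDK2 KO against WT+NU6102 and 1 to 3 past the F-test. USP18 in WT+NU6102 (-0.99) and HERC6 in CDK2 KO (-1.79) lost their call without WT replicate 1. Without CDK2 KO replicate 1, HERC6 in R50 against CDK2 KO gained a call (1.41), as did HERC6 in CDK2 KO against WT+NU6102 without CDK2 KO replicate 2 (1.49) and UBA7 there without WT+NU6102 replicate 1 (1.22). The F-test passed 1 gene without WT replicate 1, 2 without WT replicate 2 and 3 without any other array. With the replicate number as a block, 3 genes passed the F-test and no pairwise call of a member changed. Deviations of arrays with the same number correlated between -0.03 and 0.05, so no shared effect of the number was seen. Whether arrays with the same number were prepared together cannot be told from this. Quantile normalization, the authors' values, the trended prior, fits within a slide and the mean of probes changed no count of called members by over 1.5 times. Among list genes, the UBE2L3 and UFM1 calls in CDK2 KO were lost with the mean of probes. The cause of these differences was not tested. Signal near background limits UBA7 and HERC6, and 2 arrays per group limit every value.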
